A study of Mus musculus with 3 samples.

Results

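Open chromatin called in divided CBir1 T cells and in polyclonal CD4+ T cells, but not in undivided CBir1 T cells, comprised 3974 of 55946 merged regions (7.10%) of chromosomes 1 to 19. A member is a merged region that holds a peak of the divided and of the polyclonal list and no peak of the undivided list, where peaks sharing at least 1 bp were merged. The members were thus chosen by the peak calls of these 3 libraries, and their signal is given as a description. No peak in the undivided list means that no peak passed the authors' threshold there, not that the chromatin was closed. The regions are candidates for chromatin opened by antigen experience, a working name that their definition cannot test.

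The data are ATAC-seq peak lists, which mark DNA that a transposase can reach. Divided and undivided CBir1 cells carry one transgenic receptor, specific for a flagellin of gut bacteria, and had been transferred as naive splenic CD4+ cells, stained with CellTrace Violet, into 4 wild-type C57BL/6J mice. Divided cells had diluted that dye and undivided cells had kept it, while the polyclonal fraction was all non-CBir1 CD4+ cells of the recipients. All fractions came from the colon-draining mesenteric lymph nodes of mice that drank 2% dextran sulfate sodium (DSS), a chemical that injures the colon lining, for 7 days. FTY720, a drug that stops lymphocytes from leaving lymph nodes, was given at 1 mg/kg on days 7, 10 and 13 counted from the start of DSS, and cells were harvested on day 14. Fractions of 2 mice were pooled, and no library of untreated mice was analysed here. There is 1 peak list for each fraction, so differences between fractions could not be checked against replicates or tested.

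A naive T cell that meets its antigen divides and opens distal enhancers near cytokine, costimulation and migration genes, and many of them stay accessible in its memory progeny. Gene promoters are often open before activation, so cell state is usually read from elements away from gene starts. Endogenous CD4+ cells of a lymph node are a mixture of naive, memory, follicular helper and regulatory cells. In such a bulk sample, few cells with a widely open region and many cells with a slightly open one cannot be told apart.

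Among the genes of the lists described below, 5 had a promoter overlapped by a member: Gpr15, Il21, Lef1, Gcnt1 and Ccr6. Promoter sequences of the 4 whose −log10 q was at least 5 in both libraries are shown. They are shown because a member overlaps each window, and because their base composition differs widely. They are RefSeq sequences of GRCm38.p6 (the assembly of mm10), from 250 bases before to 50 bases after the start, written 5′ to 3′ on the gene's strand. Capitals mark matches on either strand to AP-1 (TGANTCA), RUNX (TGTGGTT), ETS (CCGGAAG), T-box (GGTGTGA), NFAT (GGAAA), E-box (CAGGTG), TCF (CTTTGAT) and KLF (GGGCGTG).
Gpr15: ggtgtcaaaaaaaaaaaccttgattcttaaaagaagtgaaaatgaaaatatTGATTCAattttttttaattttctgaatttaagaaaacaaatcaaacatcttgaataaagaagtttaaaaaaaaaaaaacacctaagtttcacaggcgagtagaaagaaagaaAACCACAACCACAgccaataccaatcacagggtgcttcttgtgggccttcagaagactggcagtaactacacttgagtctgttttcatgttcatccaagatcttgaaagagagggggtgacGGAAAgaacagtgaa
Il21: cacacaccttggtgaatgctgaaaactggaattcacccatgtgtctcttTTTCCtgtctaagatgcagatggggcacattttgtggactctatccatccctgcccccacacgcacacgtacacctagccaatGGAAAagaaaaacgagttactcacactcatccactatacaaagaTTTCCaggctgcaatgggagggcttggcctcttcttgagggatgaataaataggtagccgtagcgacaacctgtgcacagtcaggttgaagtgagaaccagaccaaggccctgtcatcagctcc
Lef1: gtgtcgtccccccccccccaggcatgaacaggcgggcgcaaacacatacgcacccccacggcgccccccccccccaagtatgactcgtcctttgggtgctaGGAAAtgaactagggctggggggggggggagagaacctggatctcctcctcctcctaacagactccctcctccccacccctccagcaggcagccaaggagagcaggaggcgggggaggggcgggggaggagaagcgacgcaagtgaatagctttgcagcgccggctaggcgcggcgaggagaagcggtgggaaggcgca
Gcnt1: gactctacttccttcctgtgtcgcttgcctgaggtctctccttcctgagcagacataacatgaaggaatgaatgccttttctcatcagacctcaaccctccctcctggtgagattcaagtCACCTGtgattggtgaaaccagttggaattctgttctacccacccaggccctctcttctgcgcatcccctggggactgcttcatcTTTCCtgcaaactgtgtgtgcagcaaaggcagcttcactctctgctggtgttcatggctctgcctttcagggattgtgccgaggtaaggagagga
The Gpr15 window (chr16:58718823-58719122, minus strand) holds an AP-1 match at bases 52 to 58, adjoining RUNX matches at bases 165 to 171 and 171 to 177, which share a base, and an NFAT match at bases 286 to 290. The Il21 window (chr3:37232587-37232886, minus strand) holds 3 NFAT matches and none of the other motifs. The Lef1 window (chr3:131110047-131110346, plus strand) holds 1 NFAT match, and the Gcnt1 window (chr19:17339456-17339755, minus strand) an NFAT and an E-box match. A match is a description of the letters and not evidence of binding. GC content was 33.7% in the Gpr15, 49% in the Il21, 67.3% in the Lef1 and 52% in the Gcnt1 window. The members covered all 300 bases of the Gpr15 and Lef1 windows, 254 of the Il21 window and 50 of the Gcnt1 window. At Gcnt1 these were the first 50 bases, and the member lay 201 bp upstream of the start. The Gcnt1 matches to the E-box (bases 121 to 126) and NFAT (bases 206 to 210) were thus outside the member.

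Gpr15 encodes a receptor that guides T cells to the large intestine, and its promoter member (chr16:58718593-58719212) had the larger pileup in polyclonal cells. Its summit pileup, the number of fragments stacked at the peak's highest point, was 22 fragments in divided and 34 in polyclonal cells. Its −log10 q values, the authors' measure of peak strength within each list, were 15.04 in divided and 29.51 in polyclonal cells. The order was the opposite at the promoter of Il21, the gene of a helper cytokine, where the member (chr3:37232633-37233109) had 44 fragments in divided and 18 in polyclonal cells. At Lef1, a transcription factor gene of naive T cells, the promoter member (chr3:131109993-131110392) had 66 fragments in divided and 60 in polyclonal cells. Those Lef1 pileups were only 2.20 times the local background in divided and 2.46 times in polyclonal cells, and an undivided peak lay 805 bp away. The member thus sat in a broadly open stretch rather than apart from other open chromatin. At Gcnt1, which encodes a glycosyltransferase that builds selectin ligands, the promoter member was weak, with 12 fragments in divided and 9 in polyclonal cells.

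The 3 libraries differed in depth. The lowest local background, which scales with depth if all lists were made with the same settings, was 1.21 fragments in divided, 0.865 in polyclonal and 0.808 in undivided cells. In the regions called in all 3 libraries the divided pileup was at the median 1.19 times the polyclonal and 1.21 times the undivided pileup. With pileups scaled down to the undivided depth, 3761 members by background and 3795 by shared regions would still have passed the weakest undivided peak's −log10 p of 3.33 in both libraries. At the 5th percentile of undivided peaks, a −log10 p of 5.05 used after the data were seen, 2501 by background and 2705 by shared regions would have passed. The rescaled pileups are those of the calls that chose the members, so these counts are a description. The part of depth in the missing undivided peaks was not tested. All 14 genes of the T cell identity list, among them the CD3 genes, Cd4 and Lck, had a peak at a gene end in each library.

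Members were mostly distal. Of them 415 (10.4%, Wilson 95% interval 9.53 to 11.4, counting error only) lay within 1 kb of the first or last base of a protein-coding gene, 2032 (51.1%, 49.6 to 52.7) further inside a gene and 1527 (38.4%, 36.9 to 39.9) between genes. Regions called in all 3 libraries were near a gene end in 33.1% (32.6 to 33.6), inside a gene in 37.9% and between genes in 29.0%. The other pairwise classes resembled the members: the gene-end share was 11.0% (9.73 to 12.3) in regions of divided and undivided cells only and 8% (6.94 to 9.20) in regions of undivided and polyclonal cells only. The low gene-end share is therefore not particular to the members. Members were also narrower, with a median width of 436.5 bp against 781 bp for regions of all 3 libraries, and the part of width in the gene-end share was not tested.

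**Figure D1:**
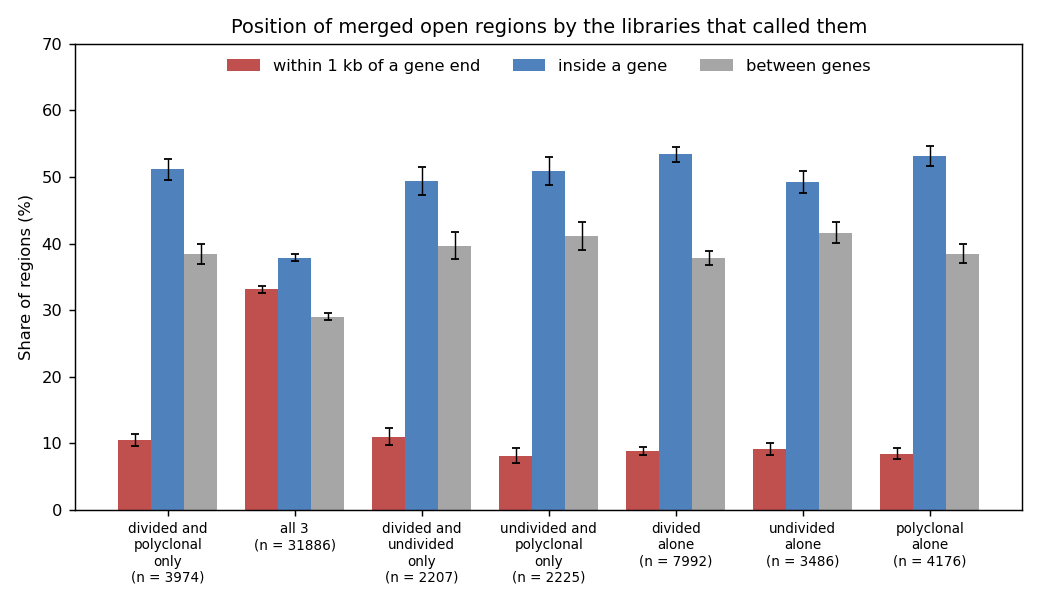
Share of merged regions (%) within 1 kb of a gene end, further inside a gene or between genes, by the libraries that called them; bars are shares and whiskers Wilson 95% intervals for counting error. The 3974 members (left) have a gene-end share of 10.4%, close to every other class except the regions of all 3 libraries (33.1%).

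Most members were modest peaks. Their pileup had a median of 17 fragments in divided cells (quartiles 12 and 26, highest 121) and 11 in polyclonal cells (9 and 17, highest 90). Regions of all 3 libraries had medians of 50 fragments in divided, 41 in polyclonal and 41 in undivided cells. The lower of a member's −log10 q values was at least 5 in 2135 members, at least 10 in 580 and at least 20 in 47. The divided and polyclonal summits of a member were a median of 46 bp apart, and 2997 members (75.4%) had them within 100 bp. The nearest undivided peak lay a median of 8037 bp away, but within 1 kb for 476 members. Those 476 had median folds over local background of 4.02 in divided and 4.12 in polyclonal cells, and the 3498 without an undivided peak that near 5.89 in divided and 5.36 in polyclonal cells.

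At the edge of the definition, the member with the lowest −log10 q lay in Tg, with 2.28 in divided and 1.36 in polyclonal cells. A region in Pik3r1, the gene of a PI3 kinase subunit, was just outside, since its undivided peak passed with a −log10 q of 1.31. It had 32 fragments in divided, 24 in polyclonal and 18 in undivided cells. The member nearest to an undivided peak, in Nsmaf, was 2 bp away from it.

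Scaled by each library's lowest background, member signal was about equal in divided and polyclonal cells, with a median ratio of 1.02 (quartiles 0.796 and 1.37). Unscaled, the pileup was higher in divided cells in 3172 members (79.8%). The same share over all regions called in both libraries was not counted. In regions of all 3 libraries the unscaled divided pileup was already 1.19 times the polyclonal at the median, so the 79.8% cannot be read as a trait of members. With scaling by the shared regions the median ratio of members was 1.20, so the balance depends on how depth is treated. By background the ratio was above 1 in 2083 members (52.4%), where 29.9% of all regions called in both libraries were. It was at least 2 in 287 members, where 1.71% of all such regions were, and at most 0.5 in 148 members, where 4.54% were. These ratios rest on the calls that chose the members and are not a separate finding.

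Among members with a −log10 q of at least 5 in both libraries, the highest scaled ratio was in Ostn (chr16:27349230-27349798), with 52 fragments in divided and 9 in polyclonal cells, a ratio of 4.14. It was followed by a member 4958 bp from Cemip2, a hyaluronidase gene, with 78 fragments in divided and 14 in polyclonal cells, and by members inside Atf6, the gene of a stress-response transcription factor, and Cmah, which encodes an enzyme of sialic acid synthesis. A member 45913 bp from Ptger2, the gene of a prostaglandin E2 receptor, had 48 fragments in divided and 10 in polyclonal cells. The lowest ratio, 0.127, was in Atp2b4, a calcium pump gene (chr1:133762885-133763620), with 14 fragments in divided and 79 in polyclonal cells. A second Atp2b4 member had 19 fragments in divided and 57 in polyclonal cells, and the strongest of the Palld members 12 in divided and 47 in polyclonal cells. A member 8588 bp from Gm3476 had 13 fragments in divided and 44 in polyclonal cells. Atp2b4 held both kinds, since another of its members had 46 fragments in divided and 20 in polyclonal cells.

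**Figure D2:**
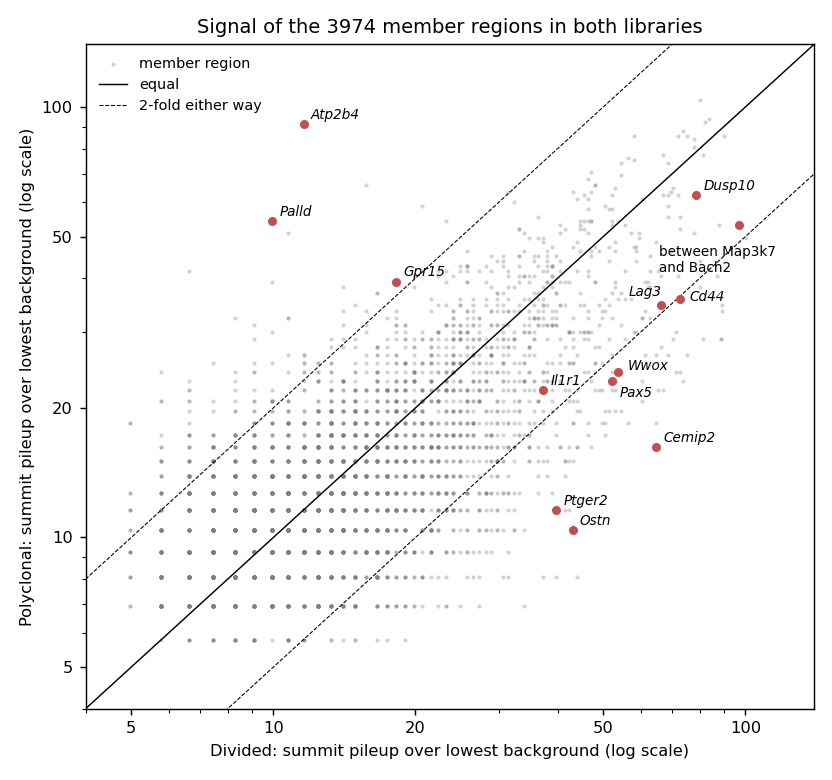
Summit pileup over the library's lowest background (log scales) in divided cells (x axis) and polyclonal cells (y axis) for the 3974 members; the solid line marks equality and the broken lines 2-fold differences. Points lie on both sides of equality, with Ostn, Cemip2 and Ptger2 toward divided and Atp2b4 and Palld toward polyclonal cells.

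The strongest member, by the lower of its −log10 q values, lay with no gene within 100 kb, between Map3k7, which encodes the TAK1 kinase, and Bach2, which encodes a repressor that holds back effector differentiation. This region (chr4:32126549-32127352) was 103079 bp from Map3k7 and 111061 bp from Bach2. It had 117 fragments in divided and 46 in polyclonal cells, with −log10 q values of 107 in divided and 45.0 in polyclonal cells. Both summits fell on the same base, and the nearest undivided peak was 11869 bp away.

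Of the 15 strongest members, 7 lay inside genes, 7 between genes and 1 near a gene end, and each had the larger unscaled pileup in divided cells. The scaled ratio was above 1 in 11 of them. In regions of all 3 libraries the unscaled divided pileup was also the larger at the median, 1.19 times the polyclonal. The member in Dusp10, which encodes a phosphatase of stress-activated MAP kinases, had 95 fragments in divided and 54 in polyclonal cells (chr1:184048759-184049305). The member nearest to Cd44, the gene of an adhesion receptor that is raised on activated T cells, had 88 fragments in divided and 31 in polyclonal cells, a scaled ratio of 2.03. These members were large in both libraries, but the Cd44 region had the steeper difference. Pomt2, Vrk1 and Dip2b also held one of these members inside the gene, with scaled ratios of 1.83, 1.63 and 1.56. At Col15a1, a collagen chain gene, the ratio was 0.981, with 63 fragments in divided and 46 in polyclonal cells. Pde11a, the gene of a cyclic nucleotide phosphodiesterase, had the 1 near a gene end, with 56 fragments in divided and 44 in polyclonal cells. That member lay 231 bp beyond the far end of the gene, 353361 bp downstream of its nearest annotated start. The other strong members were in Ttc39c and Gm2237 and between genes near Ppp1r12a, Foxq1, Rab8b, Lrpap1 and Rgs13, a gene of G protein signalling, with 59 fragments in divided and 24 in polyclonal cells.

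Counted per gene by the nearest protein-coding span within 100 kb, 2798 genes had a member, which is 13.5% of protein-coding genes and 19.4% of the 14416 genes with any region. Of these, 647 had 2 or more members and 24 had 5 or more. Of the genes with a member, 1917 (68.5%, 66.8 to 70.2) had a gene end open in all 3 libraries, close to 72.2% of genes with any region. That share was 68.0% of genes with a region of divided and undivided cells only and 70.03% of genes with one of undivided and polyclonal cells only, so it was near the background. Wwox had the most, 15 of its 63 regions, followed by Rad51b (7 of 33), Etv6 (7 of 27), Il21 (7 of 15) and Fyn (7 of 38). Etv6 encodes an ETS family repressor and Fyn a kinase of T cell receptor signalling. Of these, 4 Etv6 members but 1 Fyn member had a −log10 q of at least 5 in both libraries. Icos, Thada, Rapgef1, Elmo1 and Msi2 had 6 each, and Pde11a, Nab1, Ptger2, Cd47 and Ctla4 had 5 each. Long genes gather more regions of every kind, so the share matters: it was 5 of 6 at Ptger2, 46.7% at Il21 and 5 of 12 at Nab1, a corepressor gene of EGR factors. These genes were picked for their member counts, so shares above the 7.10% of all regions follow in part from that choice.

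**Figure D3:**
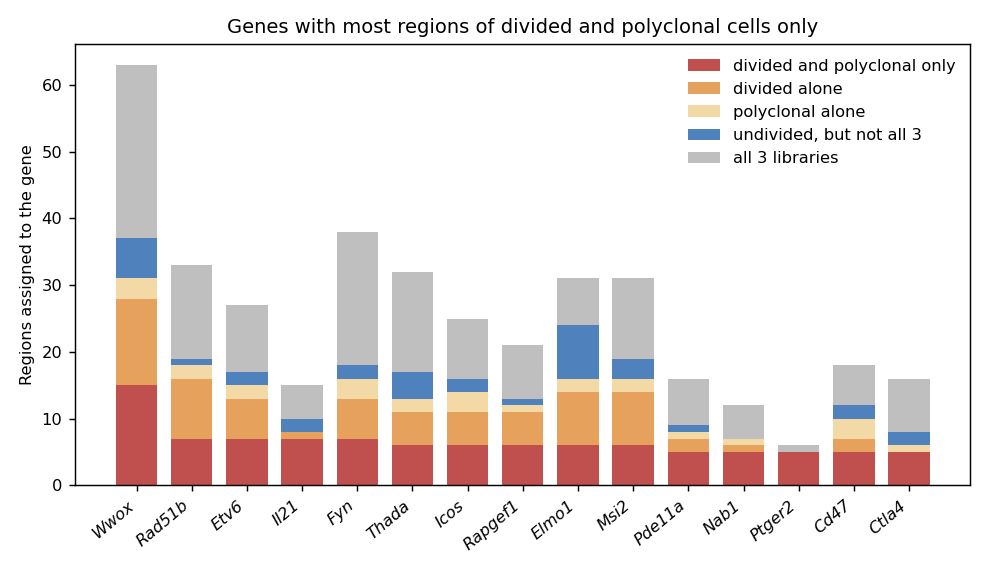
Number of regions assigned to each of the 15 genes with most members, stacked by the libraries that called them (colours in the legend). Members (bottom) reach 15 at Wwox, and they make up 5 of 6 regions at Ptger2 and 7 of 15 at Il21.

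Il21 carried a compact cluster. Besides the promoter member, 3 members followed each other inside the gene with no other region between them, so that 4 members spanned 4970 bp. Inside the gene, the member at chr3:37228140-37228569 had 28 fragments in divided and 12 in polyclonal cells. The next, at chr3:37228966-37229374, had 27 in divided and 12 in polyclonal cells, and the one at chr3:37229562-37229985 had 30 in divided and 10 in polyclonal cells. These 3 were similar in height and each was higher in divided cells, with the nearest undivided peak 8632 bp away. Away from the gene, a member 35757 bp off had 41 fragments in divided and 23 in polyclonal cells, whereas one 42404 bp off had 10 in divided and 19 in polyclonal cells. A −log10 q of at least 5 in both libraries was reached by 2 of the 7 members, and 4 lay within 20 kb of the gene.

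Ctla4 and Icos, neighbouring genes of an inhibitory and a costimulatory receptor, carried 11 members, split between them only by the nearer gene span. Within 300 kb of Icos there were 14 members, 28 regions of all 3 libraries and 12 of divided cells alone. The same window held 6 regions of undivided cells alone and 5 of polyclonal cells alone. It also held 3 of undivided and polyclonal cells only and 1 of divided and undivided cells only. Among all regions, 7.10% are members. The strongest Ctla4 member by the lower −log10 q (chr1:60930444-60930986) had 33 fragments in divided and 19 in polyclonal cells. Another lay inside Ctla4 (chr1:60910883-60911111), with 76 fragments in divided and 39 in polyclonal cells, though an undivided peak was 1596 bp away. All 6 Icos members lay outside the gene. Their pileups ran between 13 and 30 fragments in divided and between 11 and 17 in polyclonal cells, and only the one at chr1:60953052-60953435 was lower in divided cells before scaling, with 13 fragments against 16 in polyclonal cells. Scaled by background, the member at chr1:61054472-61055410, with 19 fragments in divided and 15 in polyclonal cells, was lower too, at a ratio of 0.907. The members at Icos were thus many and weak, none matching the Cd44 region in height, and 2 of the 6 lay within 20 kb of the gene.

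Cd47, which encodes a surface protein that restrains phagocytes, had 5 members, all beyond its end and 23514 to 57430 bp from the gene. Their pileups ran between 26 and 42 fragments in divided and between 9 and 23 in polyclonal cells, and all were higher in divided cells before scaling. None would be assigned to Cd47 with a limit of 20 kb. The 5 members of Ptger2 likewise lay outside the gene, at 15, 24, 26, 26 and 48 fragments in divided cells and 9, 14, 14, 16 and 10 in polyclonal cells. The member with 48 fragments was thus the one that stood apart, and in divided cells only.

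A row of members was also found in Wwox, which encodes an oxidoreductase with WW domains and borders Maf, the gene of a transcription factor of follicular helper, Th17 and Il10-producing cells. There 5 members followed each other over 32382 bp without another class between them. Within 700000 bp of Maf there were 18 members, 12 regions of divided cells alone, 11 of all 3 libraries and 1 of undivided cells alone. The same window held 2 regions of polyclonal cells alone and 1 of divided and undivided cells only. Of the members assigned to Maf, the one 19668 bp from it (chr8:115726562-115727538) had 79 fragments in divided and 19 in polyclonal cells, a scaled ratio of 2.98. The one 35601 bp away had 51 fragments in divided and 22 in polyclonal cells, and the most distant, at 84603 bp, 8 in divided and 10 in polyclonal cells. The Wwox member with 65 fragments in divided and 21 in polyclonal cells had a ratio of 2.22. In contrast, the Wwox member at chr8:115064678-115065094 had 27 in divided and 30 in polyclonal cells. A longer row, of 7 members on chromosome 5 near Gm5861, spanned 390280 bp. Rows of 4 members, as at Il21, numbered 10 over chromosomes 1 to 19, and 3251 members stood alone.

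**Figure D4:**
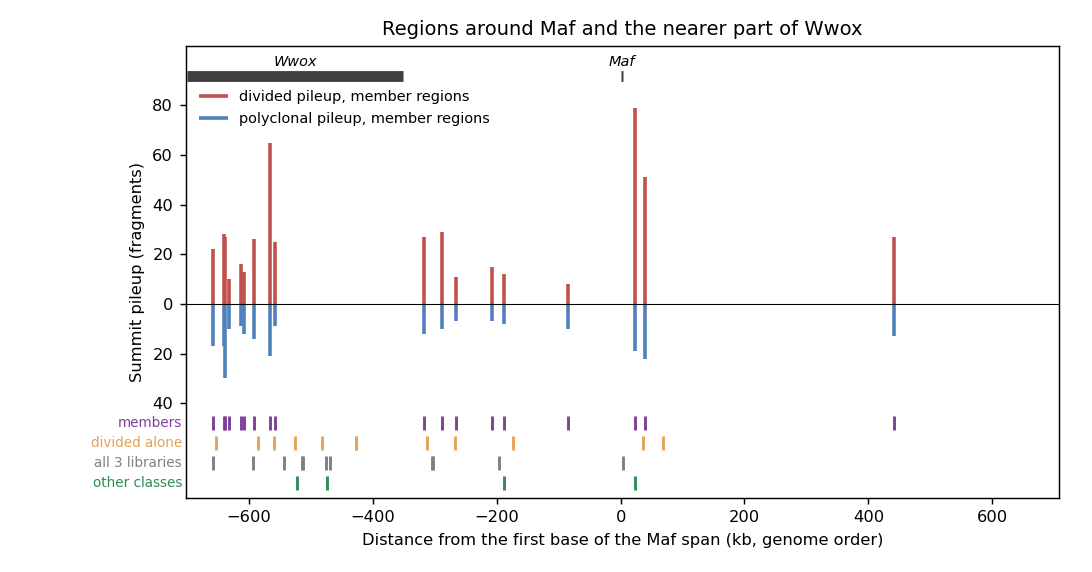
Regions within 700000 bp of Maf by distance from the first base of its span (kb); lines show the summit pileup of members in divided (up) and polyclonal cells (down), and ticks below show members, regions of divided cells alone, regions of all 3 libraries and other classes. The tallest member, 79 fragments in divided and 19 in polyclonal cells, lies just beyond Maf, and most others lie in or near Wwox.

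Members were then counted at lists of T cell genes. For comparison, 7.10% of all regions are members, and 13.5% of protein-coding genes, or 19.4% of genes with any region, have at least 1. Genes with many regions have more room for a member, so the gene counts below cannot be read as a surplus of members. At follicular helper genes 25 of 137 regions (18.2%) were members, in 8 of 12 genes, led by Il21 with 7 and Icos with 6. Tox, which encodes a chromatin factor of follicular helper and exhausted cells, had 4, all inside the gene, and the strongest by pileup had 31 fragments in divided and 18 in polyclonal cells. Regulatory T cell genes had 18 of 112 (16.1%), in 6 of 14 genes, with 5 each at Ctla4 and Nrp1 and 4 at Il10. At Il10, an anti-inflammatory cytokine gene, the member inside the gene (chr1:131022292-131023250) had 34 fragments in divided and 13 in polyclonal cells. A member 23159 bp from Il10 had 58 in divided and 21 in polyclonal cells. The strongest Il10 member by the lower −log10 q, 18.5, lay 8901 bp away, with 55 fragments in divided and 26 in polyclonal cells. The remaining Il10 member, 921 bp from the gene, had 16 in divided and 14 in polyclonal cells, a scaled ratio of 0.819. At Nrp1, a coreceptor gene of regulatory T cells, a member 44178 bp away had 38 fragments in divided and 11 in polyclonal cells, while the other 4 had 8 to 15 in divided and 7 to 12 in polyclonal cells. Nrp1's count thus rests on weak regions, of which 1 had a −log10 q of at least 5 in both libraries.

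Th17 genes had 16 members of 126 regions (12.7%), in 8 of 14 genes, with 5 at Rora, 3 at Il1r1 and 3 at Ahr, but in 4 genes with a −log10 q of at least 5 in both libraries. All 5 Rora members lay inside this nuclear receptor gene, with 12 to 25 fragments in divided and 8 to 18 in polyclonal cells. At Il1r1, the gene of the interleukin 1 receptor, the strongest (chr1:40189876-40190579) lay 31901 bp off with 45 fragments in divided and 19 in polyclonal cells. The strongest by pileup at Ahr, the aryl hydrocarbon receptor gene, had 26 fragments in divided and 8 in polyclonal cells. Its −log10 q was only 3.22 in polyclonal cells. The strongest Ahr member by the lower −log10 q, 6.80, had 13 fragments in divided and 12 in polyclonal cells, a scaled ratio of 0.776. Th1 genes had 8 of 110 (7.27%), each at another gene, near the share of all regions. The Ifng member (chr10:118486529-118487001), 40635 bp from that cytokine gene, had 20 fragments in divided and 16 in polyclonal cells, and the Runx3 member had 30 in divided and 19 in polyclonal cells. Th2 genes had 4 of 47 (8.51%), and their strongest, in Rad50, next to the Th2 cytokine genes, had a scaled ratio of 2.00. The Il1rl1 member had 18 fragments in divided and 11 in polyclonal cells.

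Migration and gut-homing genes had 11 members of 89 regions (12.4%), in 6 of 17 genes. Itgal, an integrin gene, had 3, none with a −log10 q of at least 5 in both libraries, Gpr15, Gcnt1 and Itga4 had 2 each, and Itgae and Itgb7 had 1 each. The second Gpr15 member, 4007 bp from the gene, had 20 fragments in divided and 13 in polyclonal cells, so the excess in polyclonal cells was seen at the promoter and not there. Cytotoxic genes had 4 of 38 (10.5%), 2 each at Gzmk, a granzyme gene, and Fasl, a death ligand gene. Inhibitory receptor and anergy genes had 8 of 98 (8.16%). Among these the Lag3 member near the gene end had 80 fragments in divided and 30 in polyclonal cells, and a member 53936 bp from Nt5e, which encodes an adenosine-forming enzyme, 33 in divided and 13 in polyclonal cells.

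Memory and activation regulators had 17 of 251 (6.77%), in 11 genes (4 genes with a −log10 q of at least 5 in both libraries), T cell identity genes 7 of 142 (4.93%) and cell cycle genes 3 of 66 (4.55%). Cd247, which encodes the zeta chain of the receptor complex, and Cd28, a costimulatory receptor gene, had 2 each, the strongest with 70 fragments in divided and 26 in polyclonal cells at Cd247 and with 49 in divided and 36 in polyclonal cells at Cd28. Of the G1 regulator genes, the Cdk6 member had 43 fragments in divided and 16 in polyclonal cells and the Ccnd3 member 35 in divided and 39 in polyclonal cells. The Cd28 and Ccnd3 members were below a −log10 q of 5 in at least 1 library. A member inside Runx2, a Runt family transcription factor gene, had 33 fragments in divided and 10 in polyclonal cells. An undivided peak lay 749 bp from this Runx2 member. The Junb member had 81 fragments in divided and 67 in polyclonal cells but only 1.79 times the local background in divided and 1.78 times in polyclonal cells, with an undivided peak 556 bp away. Naive and quiescence genes had 23 of 431 (5.34%). At least 1 member was carried by 11 of their 16 genes, where 13.5% of protein-coding genes have one. These 16 genes held 431 regions, so the gene count cannot be read as a surplus of members. Foxp1, a quiescence factor gene, had 5 members of 75 regions, of which the tallest had 40 fragments in divided and 39 in polyclonal cells, and none had a −log10 q of at least 5 in both libraries. All 3 members of Lef1 had scaled ratios below 1, from 0.696 to 0.788. A member 16511 bp from Il6st, which encodes the shared receptor chain of interleukin 6, had 50 fragments in divided and 19 in polyclonal cells. The other 2 Il6st members had 43 in divided and 39 in polyclonal cells, a ratio of 0.790, and 62 in divided and 41 in polyclonal cells, a ratio of 1.08. In all, 8 of the 12 T cell lists were above 7.10%, none was tested, and the lists were drawn up with earlier results of these data known.

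**Figure D5:**
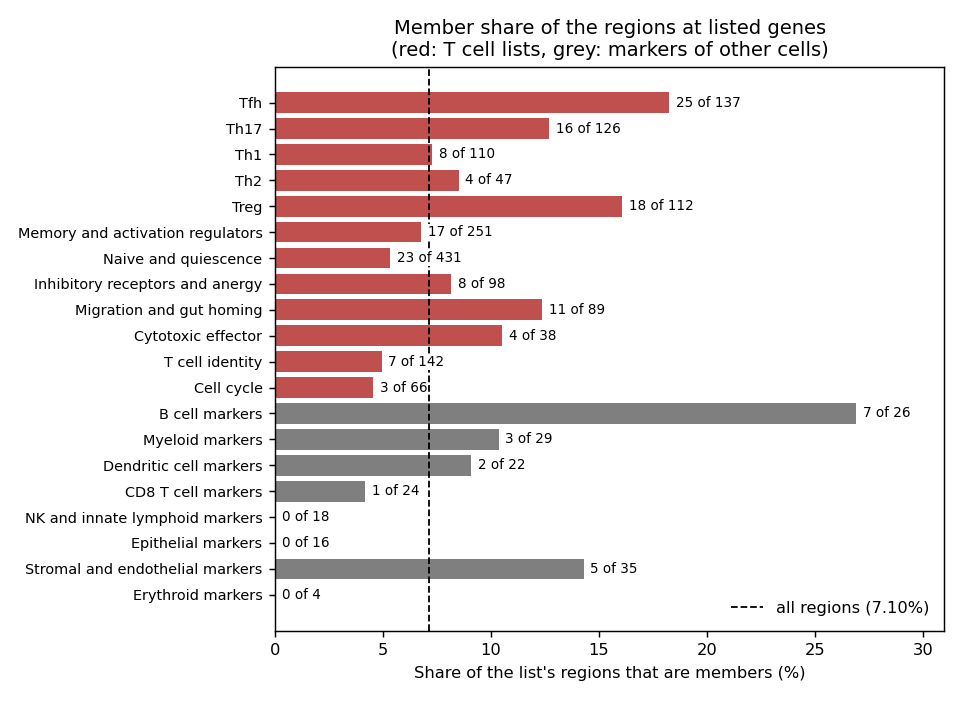
Share of the regions assigned to each gene list that are members (%); bars are labelled with member and total regions, and the broken line is the share among all regions (7.10%). B cell markers (7 of 26) have the largest share; follicular helper (25 of 137), regulatory (18 of 112), stromal and endothelial (5 of 35) and Th17 genes (16 of 126) also lie above the line, and naive genes (23 of 431) below it.

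Markers of other cells also carried members. B cell markers had 7 of 26 regions (26.9%), 2 each at Pax5 and Ebf1 and 1 each at Cd22, Blk and Bank1. The Pax5 members, both inside this B cell transcription factor gene, had 63 fragments in divided and 20 in polyclonal cells (chr4:44624478-44625310) and 38 in divided and 11 in polyclonal cells (chr4:44704262-44704724). Of the 11 B cell markers, 5 in divided, 3 in polyclonal and 2 in undivided cells had a peak at a gene end, and their summed pileup over background was 132 in divided, 154 in polyclonal and 146 in undivided cells. Cd79b, Ms4a1, Pax5, Cd22 and Bank1 lacked one in every library. The part of other cells in the members was not tested. Stromal and endothelial markers had 5 of 35 regions (14.3%), a larger share than Th17 genes, with 3 at Cdh5 and 2 at Pecam1, both genes of endothelial adhesion proteins. The strongest Cdh5 member had 22 fragments in divided and 19 in polyclonal cells, and the strongest Pecam1 member 13 in divided and 11 in polyclonal cells. Myeloid markers had 3 of 29 (10.3%), at Itgam and Fcgr1, and dendritic cell markers 2 of 22 (9.09%), at Zbtb46 and Batf3. The Zbtb46 member had 60 fragments in divided and 22 in polyclonal cells, and the Batf3 member 19 in divided and 7 in polyclonal cells. CD8 T cell markers had 1 of 24 (4.17%), at Itgae. NK and innate lymphoid (18 regions), epithelial (16) and erythroid markers (4) had 0. In all, 4 of the 8 marker lists were above 7.10%.

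Members overlapped 204 promoter windows that no region of all 3 libraries touched, among 31365 RefSeq windows in all. The 204 windows came from 181 members, and some of them share bases with one another, such as those of Gm38418. The intervals below count each window as separate and may thus be too narrow. The ratio of observed to expected CpG was under 0.5 in 82 of the 204 windows (40.2%, 33.7 to 47.0). It was so in 15.6% (14.99 to 16.29) of windows open in all 3 libraries and in 57.6% of all windows. Member promoters thus stood between the CpG-rich promoters open in all 3 libraries and promoters at large. The promoter member of Itgb8, the gene of an integrin chain that activates TGF-beta, was chosen after its values were seen and had 42 fragments in divided and 27 in polyclonal cells. The ETS motif was in 6.37% of member windows (3.76 to 10.6), 19.4% of windows open in all 3 libraries and 9.0005% of all windows. The E-box was in 30.4% (24.5 to 37.0) of member windows, 17.9% of windows open in all 3 and 20.5% of all windows. AP-1 was in 7.84% (4.89 to 12.4) of member windows, 4.44% of windows open in all 3 and 7.85% of all windows. RUNX was in 4.41%, T-box in 5.88%, NFAT in 55.4%, TCF in 2.45% and KLF in 11.8% of member windows. Over all windows these shares were 5.32% for RUNX, 3.998% for T-box, 61.5% for NFAT, 3.76% for TCF and 8.59% for KLF. CpG content differs between these sets as given above, and its part in the motif shares was not tested.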

How the data were processed

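ATAC-seq was analysed for 3 sorted CD4+ T cell fractions with 1 deposited peak list each. Per the submitters' processing notes, the tools included MACS2 2.1.0, Bowtie2 2.3.2, Trimmomatic 0.33, cutadapt 1.12 and bcl2fastq 2.17, with SAMtools and Picard, and the build was mm10. Neither the handling of the duplicate pools nor any read shift for the transposase is stated in the sources used here. The deposited lists give each peak a score, a fold over local background (a ratio), a −log10 p-value and a −log10 q-value, which are the authors' own.

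Whole-fragment pileups were recovered from the authors' fold and −log10 p under a Poisson model, to a tolerance of 0.001, for 99.9958% of divided, 99.9932% of polyclonal and 99.9952% of undivided peaks. Read totals are not given, so depth was judged from the lowest background. Merging, counting and Wilson 95% intervals used Python 3.11.15, pandas 2.3.3 and scipy 1.17.1, with methods tested on simulated data. Genes and promoters came from RefSeq GRCm38.p6, without exons or a genome sequence. No test between groups was made. Genes to name were the 15 with most members, up to 2 per list, and those of the 15 strongest members and of the 5 highest and 5 lowest ratios. Genes outside that rule, such as Il10, Maf, Ahr, Tox, Lef1, Junb, Gcnt1 and Itgb8, were named after their values were seen. The members and lists were chosen with earlier results of these data known. Alternatives were other thresholds, overlaps, windows, distances and depth scalings.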

Additional observations from a re-analysis of the deposited data

Results flagged for a closer look

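Chromosomes X and Y were outside the definition. There, 87 merged regions had a divided and a polyclonal peak and no undivided peak, 83 of 1475 regions on X (5.63%) and 4 of 36 on Y (11.1%). They were not used in any count above.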

How the results depend on the processing

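Of the 3974 members, 2135 remained with a −log10 q of at least 5 in both libraries and 580 with at least 10. Within reach of the undivided library at the 5th percentile of its −log10 p, an alternative chosen after seeing the data, there were 2501 by background and 2705 by shared regions. The gene-end share was 9.27% for the 2135 members of the first threshold, 9.01% with no undivided peak within 1 kb and 14.8% with a 2 kb window. For the 580 members of the second, the share inside genes was 47.4% and the median scaled ratio turned below 1, to 0.972. That ratio was 1.00 for the 2135, 1.05 with a common minimum of pileup over background, 1.07 within reach at the 5th percentile by background and 1.20 with scaling by shared regions. The cause of these shifts was not tested. The half-overlap rule gave 3826 members.

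Per gene, 19 of 45 named genes changed their member count by more than 1.5 times under the first threshold, 14 with genes within 20 kb (Icos had 2, Cd47 0), 1 within reach of undivided by background and 14 within reach at the 5th percentile. Of 20 lists these numbers were 7, 2, 0 and 4 for genes with a member, among them Th17 with 4 genes under the first threshold. No paired analysis was possible because each group has 1 library. The undivided list's depth limits what its lack of a peak can show.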
